A study of Mus musculus with 24 samples.

Results

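The genes described here encode the moving parts of cilia and flagella: dynein arm subunits, tektins, radial spoke proteins, nexin-dynein regulatory complex proteins, cilia and flagella associated proteins, intraflagellar transport (IFT) subunits and sperm associated antigens. They were taken by name, as every gene whose symbol starts with Dnah, Dnai, Dnal, Tekt, Rsph, Cfap, Drc, Ift or Spag followed by a digit, with Dnali1 added. Of 93 such genes in the assembly table, 77 had a probe on the array, out of 19057 named genes, and each is represented by its probe with the highest mean over the arrays. The 77 comprise 27 Cfap, 14 Ift, 12 Spag, 10 Dnah and 5 Rsph genes, 3 genes each of the Drc and Tekt families, and the 3 light chain genes Dnal1, Dnal4 and Dnali1. The rule works on names, so it also takes in Spag genes that are not known as axoneme genes, among them Spag4 (a nuclear envelope protein), Spag5 (a mitotic spindle protein), Spag9 (a scaffold of JNK signalling) and the epididymal, defensin-like Spag11a and Spag11b. Not analysed here, for want of a probe, were 16 genes, among them Tekt2, Tekt4 and Dnah3.

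Testes of NSun2 knock-out (KO) mice at 15 days, wild-type (WT) mice at 15 days, KO mice at 49 days and WT mice at 49 days were profiled on Illumina beadchips, with 6 arrays in each group. NSun2 methylates carbon 5 of cytosine in RNA. The mice of every group were F1 offspring of CBA and C57BL/6J parents. NSun2-/- mice of a gene-trap line (ES cell line D014D11) and of the Nsun2tm1a(EUCOMM)Wtsi line were used, with the line of each sample not stated. Nor is it stated that arrays are separate animals, so p-values measure the spread between these samples. RNA was from whole testis, in which fewer cells of a type and less RNA per cell cannot be told apart.

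The axoneme is the microtubule core of motile cilia and of the sperm tail. Outer doublet microtubules, reinforced by tektins and by proteins inside the tubule wall, carry dynein arms that slide neighbouring doublets, while radial spokes, the central pair and the nexin-dynein regulatory complex shape that sliding into a beat. IFT trains carry building blocks to the tip and back, and in the testis the sperm tail is assembled in spermatids, with many of its transcripts appearing during meiosis.

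Promoters are shown for the 3 genes with the largest falls at 15 days (Tekt1, Spag6l, Cfap206) and the 3 with the largest falls at 49 days (Tekt5, Cfap221, Cfap97d1) among those with a promoter in the table used, as 300 bases that run from 250 before the annotated start to 50 after it in RefSeq, build GRCm38.p6, read 5′ to 3′ on the gene's strand. Capitals mark matches to GTTGCC, on either strand (GGCAAC on the other), 1 arm of the X-box, the element bound by RFX transcription factors. The regions are chr11:72361833-72362132 for Tekt1, which has 2 promoters in the table, chr16:16829314-16829613 for Spag6l, chr4:34730157-34730456 for Cfap206, chr16:10395406-10395705 for Tekt5 and chr1:119997183-119997482 for Cfap221, each on the minus strand, and chr11:101986806-101987105 for Cfap97d1, on the plus strand.
Tekt1: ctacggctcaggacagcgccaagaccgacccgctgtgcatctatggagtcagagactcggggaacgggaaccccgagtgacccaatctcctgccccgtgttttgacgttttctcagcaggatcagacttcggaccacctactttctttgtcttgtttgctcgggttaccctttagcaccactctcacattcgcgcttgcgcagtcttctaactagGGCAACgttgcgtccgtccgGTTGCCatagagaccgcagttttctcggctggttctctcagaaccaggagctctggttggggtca
Spag6l: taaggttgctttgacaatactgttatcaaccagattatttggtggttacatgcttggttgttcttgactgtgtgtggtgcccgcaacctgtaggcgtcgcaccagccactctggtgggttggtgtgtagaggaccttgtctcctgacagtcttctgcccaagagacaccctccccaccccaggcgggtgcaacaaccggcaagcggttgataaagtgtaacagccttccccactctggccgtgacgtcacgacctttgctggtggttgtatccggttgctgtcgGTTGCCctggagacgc
Cfap206: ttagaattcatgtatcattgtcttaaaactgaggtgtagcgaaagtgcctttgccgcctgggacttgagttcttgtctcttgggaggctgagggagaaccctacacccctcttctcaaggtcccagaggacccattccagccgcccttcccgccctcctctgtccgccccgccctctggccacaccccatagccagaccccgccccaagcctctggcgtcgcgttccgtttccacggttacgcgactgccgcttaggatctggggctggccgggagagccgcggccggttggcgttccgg
Tekt5: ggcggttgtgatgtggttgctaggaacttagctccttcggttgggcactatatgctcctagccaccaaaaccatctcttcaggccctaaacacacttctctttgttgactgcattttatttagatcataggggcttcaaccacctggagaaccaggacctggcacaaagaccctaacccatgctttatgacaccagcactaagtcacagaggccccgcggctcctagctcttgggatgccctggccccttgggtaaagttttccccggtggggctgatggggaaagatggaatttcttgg
Cfap221: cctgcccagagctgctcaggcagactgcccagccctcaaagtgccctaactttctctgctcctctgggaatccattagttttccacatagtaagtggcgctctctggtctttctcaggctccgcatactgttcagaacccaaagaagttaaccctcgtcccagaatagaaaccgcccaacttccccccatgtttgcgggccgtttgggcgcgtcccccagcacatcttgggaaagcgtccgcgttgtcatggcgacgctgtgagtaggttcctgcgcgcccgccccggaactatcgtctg
Cfap97d1: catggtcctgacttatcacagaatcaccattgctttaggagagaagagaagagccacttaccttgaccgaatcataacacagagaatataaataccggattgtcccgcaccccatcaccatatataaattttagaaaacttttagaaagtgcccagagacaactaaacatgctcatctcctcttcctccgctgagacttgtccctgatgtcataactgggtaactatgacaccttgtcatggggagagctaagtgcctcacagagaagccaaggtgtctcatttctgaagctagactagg
The Tekt1 promoter shown held 2 such arms, 1 on each strand, and its other promoter held 0, while Spag6l held 1. No match lay in these windows of Cfap206, Tekt5, Cfap221 and Cfap97d1. Promoters were found for 64 of the 77 genes. The arm lay in at least 1 promoter of 22 of these 64 genes (34.4%), against 14.1% of the 27025 genes in the promoter table. The full spaced X-box, searched on both strands, matched in 2 of the 64 (3.13%, Cfap20dc and Cfap298), against 0.529% of all genes, and the MYB motif AACTGNC, on either strand, matched in 13 (20.3%), against 14.5%. By response, the arm lay in 4 of the 10 genes with a promoter among those that fell at 15 days and in 12 of 40 among those that fell at 49 days. A match is a description of these letters and not a site of binding.

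Each array showed between 16267 and 19051 probes above background, meaning brighter than all but a share of 0.01 of 946 dim control rows. Levels are background-corrected, quantile-normalized log2 intensities, and differences are KO minus WT unless stated. The Nsun2 probe was above background on no KO array at either age, and on 5 of 6 WT arrays at 15 days and 3 of 6 at 49 days. It had log2 levels of 4.91 to 5.29 on KO arrays and 5.85 to 7.24 on WT arrays at 15 days (log2 difference -1.47 ± 0.20 SE, adjusted p = 3.8e-04 in limma, at least 1.16-fold lower), and 5.14 to 6.07 on KO arrays and 5.79 to 6.99 on WT arrays at 49 days (-1.15 ± 0.20, adjusted p = 8.86e-05, at least 1.17-fold lower). Some arrays stood apart. Array D of the 49-day KO group was the lowest of its group for 54 of the 77 genes. Elongating spermatid markers, which belong to cells not yet formed at 15 days, averaged 1.86 (log2) above the WT mean on 15-day KO array B and 0.90 above it on 15-day WT array A. Epididymis markers averaged 1.08 above the WT mean on 15-day KO array E, the array with a Spag11a level of 11.86, where the median of its group was 5.29, and Spag11b stood at 9.34 on 15-day KO array B, with a group median of 5.08.

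At 15 days, 15 of the 77 genes fell in KO testes and none rose (limma, Benjamini-Hochberg adjusted p under 0.05 over all 45278 probes; at an unadjusted p under 0.05 the counts are 34 lower and 0 higher). Over all named genes 2.24% fell and 0.724% rose. The median log2 difference of the 77 genes was -0.35, against 0.01 over all named genes. At 49 days 45 fell and 3 rose, where 18.7% of all named genes fell and 30% rose, and the median was -0.97, against 0.05 over all named genes. Both ages saw the fall of 6 genes (Cfap45, Cfap57, Cfap69, Cfap206, Ift122 and Tekt1), 9 fell at 15 days without passing at 49 days, 39 fell at 49 days without passing at 15 days, and 20 passed at neither age. The ranges of the 6 KO and 6 WT arrays did not overlap for 23 genes that were lower and 0 that were higher at 15 days (4.26% and 2.99% of all named genes) and for 30 genes that were lower and 2 that were higher at 49 days (10.4% and 15.6% of all named genes). Leaving out 49-day KO array D, whose spread enters the shared variance, gave 28 falls at 15 days and 40 falls at 49 days, with a median of -0.64 at 49 days.

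**Figure D1:**
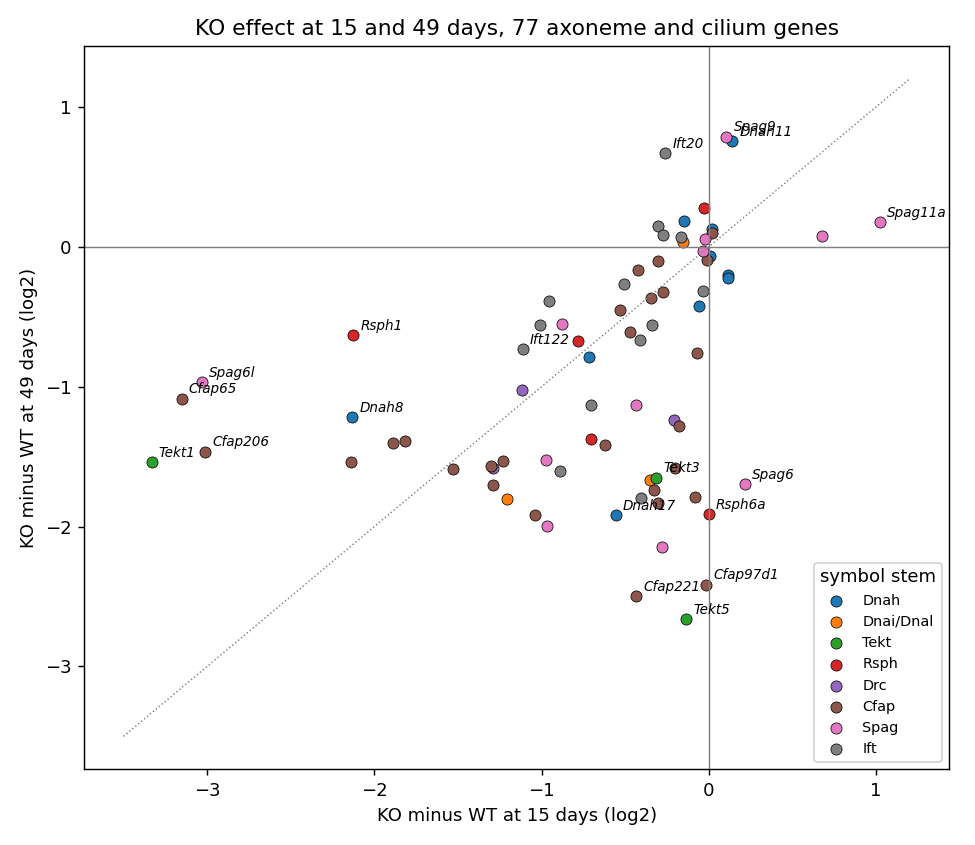
Log2 difference, KO minus WT, at 15 days (x axis) and at 49 days (y axis) for the 77 genes, coloured by symbol stem, with equal effects on the dotted line. Tekt1, Spag6l, Cfap65 and Cfap206 lie far left, near or below -3 at 15 days, while Tekt5, Cfap221 and Cfap97d1 lie at the bottom, below -2.4 at 49 days and near 0 to -0.44 at 15 days.

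Tektins, the filament-forming proteins of the doublet wall, all fell at 49 days, and Tekt1 also at 15 days. Tekt1 was above background on 2 of 6 KO arrays and on 6 of 6 WT arrays at 15 days, so its ratio there rests on KO levels mostly at background. Tekt1 on the KO arrays at 15 days had log2 levels of 5.53 at the lowest, 6.17 at the median and 7.05 at the highest, against 8.73, 9.40 and 10.72 on the WT arrays. The groups did not overlap, and the KO mean was 0.0993 of the WT mean (log2 difference -3.33 ± 0.51 SE, adjusted p = 9.13e-04). At 49 days the 6 KO arrays for Tekt1 spread from 9.52 to 13.66 with a median of 12.47, against 13.71 to 13.87 with a median of 13.82 on WT arrays, so every KO array lay below every WT array, KO array F by a small margin (-1.54 ± 0.51, adjusted p = 0.0178). Without array D the difference was -0.99 (adjusted p = 0.0392).
Tekt5, a tektin of the sperm flagellum, was not above background on any array at 15 days, with 5.04 to 5.41 on KO arrays and 5.04 to 5.68 on WT arrays. At 49 days Tekt5 had its lowest, median and highest KO levels at 5.87, 7.88 and 10.04, against 10.60, 10.75 and 10.84 on WT arrays. The KO mean of Tekt5 was 0.158 of the WT mean, the deepest log2 fall of the 77 genes at that age (-2.66 ± 0.41, adjusted p = 2.14e-05).
Tekt3, like Tekt5, was above background on no 15-day array, so no fall could be seen there for either gene. At 49 days Tekt3 fell by 1.65 ± 0.45 on the log2 scale (adjusted p = 0.0052). Its lowest, median and highest KO levels were 8.19, 10.77 and 12.35, against 12.26, 12.43 and 12.60 in WT.

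**Figure D2:**
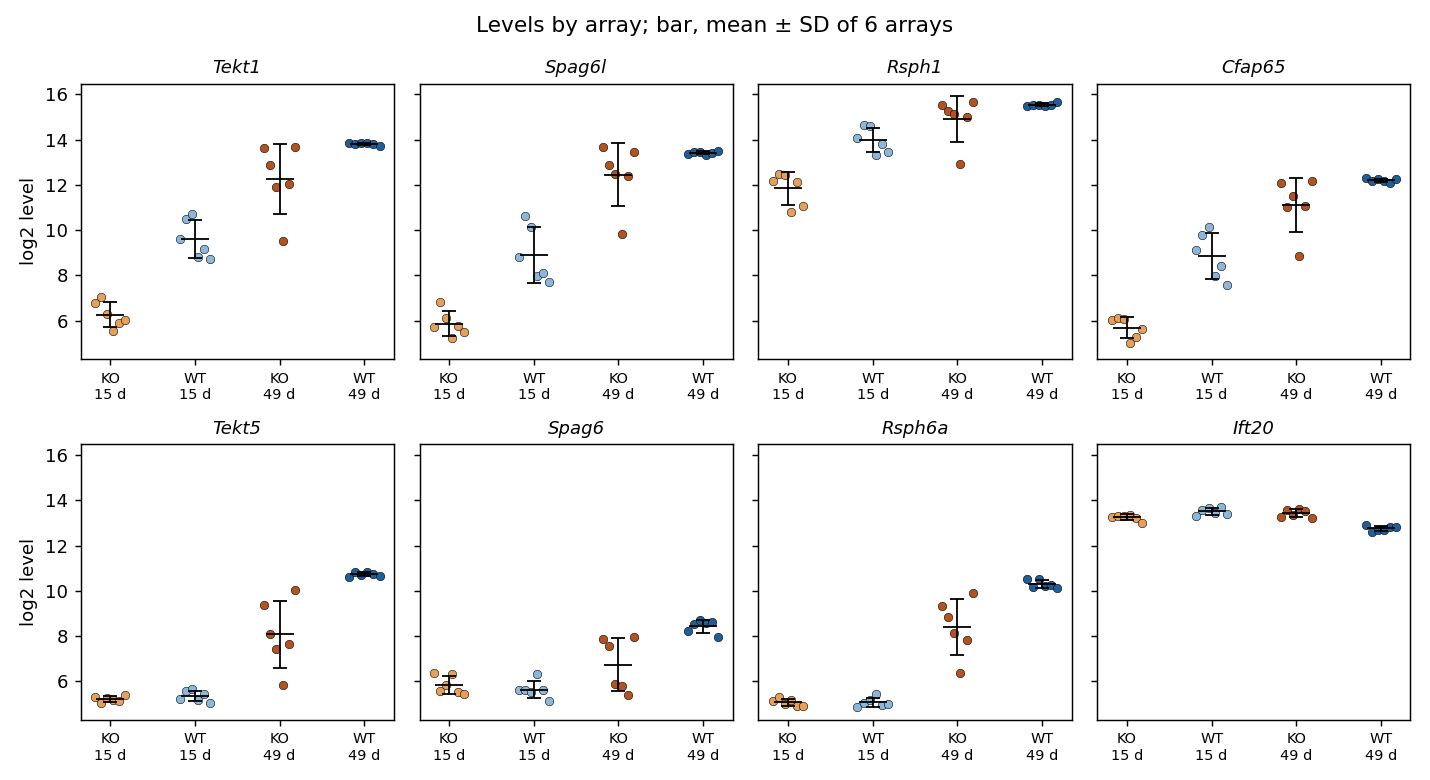
Log2 level on each array (points) with the mean and SD of 6 arrays (bars) for 8 genes in KO and WT testes at 15 and 49 days. Tekt1, Spag6l, Rsph1 and Cfap65 (upper row) separate KO from WT at 15 days, Tekt5, Spag6 and Rsph6a (lower row) are near background at 15 days and separate the groups at 49 days, and Ift20 is higher in KO at 49 days.

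Radial spokes carry signals between the central pair and the dynein arms. Rsph1, a spoke head protein, had log2 levels of 10.80, 12.15 and 12.50 (lowest, median, highest) on KO arrays at 15 days, against 13.34, 13.94 and 14.63 on WT arrays, with no overlap (-2.13 ± 0.37, adjusted p = 0.00274). At 49 days Rsph1 stood at 12.91, 15.20 and 15.65 in KO, against 15.49, 15.53 and 15.68 in WT. Here the KO range reached into the WT range and the difference of -0.63 ± 0.37 did not pass (adjusted p = 0.212). The deposited intensity of the Rsph1 probe was 44142 to 50191 on those WT arrays, and whether the upper end of the scanner's range limited it was not tested.
Rsph6a, the spoke head protein of the sperm tail, was above background on no 15-day array and had a difference of 0.00 there. At 49 days the KO arrays for Rsph6a ran from 6.39 to 9.91 with a median of 8.49, against 10.14 to 10.54 with a median of 10.24 in WT, without overlap (-1.91 ± 0.35, adjusted p = 1.3e-04). The other spoke genes were Rsph9, Rsph3a and Rsph4a. Rsph9, also a head protein, fell at 49 days (-1.37 ± 0.31, adjusted p = 9.04e-04, ranges 9.84 to 12.66 in KO and 12.84 to 12.94 in WT) and had -0.70 ± 0.31 at 15 days (adjusted p = 0.305). Rsph3a, a stalk protein, fell by 0.67 ± 0.25 at 49 days (adjusted p = 0.0363), a call that ended without KO array D (-0.37, adjusted p = 0.0726). Rsph4a, the head protein of motile cilia, was above background on 1 array, in the 49-day KO group, and passed no KO test.

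The central pair drives the spokes, and Spag6 and Spag6l are paralogs of a central pair protein whose probes may share signal. Spag6l at 15 days had 5.26, 5.74 and 6.82 as its lowest, median and highest KO levels, against 7.71, 8.45 and 10.63 in WT (-3.03 ± 0.53, adjusted p = 0.00253). It was above background on 1 of those KO arrays and on all 6 WT arrays, so the size of the difference is uncertain. The Spag6l call ended without background correction and with the authors' log2 values (-1.52, adjusted p = 0.0708 in both). At 49 days Spag6l had 9.82, 12.69 and 13.67 in KO, against 13.34, 13.42 and 13.51 in WT, and the ranges overlapped (-0.97 ± 0.53, adjusted p = 0.171). A second Spag6l probe, above background on 14 of the 24 arrays, had -1.50 at 15 days (adjusted p = 0.219) and -1.43 at 49 days (adjusted p = 0.0568), passing at neither age. Another Spag6l probe, above background on 1 array, had -0.26 at 15 days (adjusted p = 0.494) and passed as lower at 49 days (-0.48, adjusted p = 0.012).
Spag6 was above background on no 15-day array, so no fall could be seen there and the timing of the pair was not compared. At 49 days its KO levels were 5.42, 6.72 and 7.96, against 7.97, 8.56 and 8.73 in WT (-1.70 ± 0.36, adjusted p = 6.02e-04), and it was above background on 3 of 6 KO arrays and on 6 of 6 WT arrays. Spag16, a central pair protein, fell by 1.52 ± 0.44 at 49 days (adjusted p = 0.0078), while Spag17, of the same structure, was above background on no array. Cfap221, a central pair protein, had 5.15, 8.03 and 9.99 in KO at 49 days, against 10.22, 10.53 and 10.78 in WT (-2.50 ± 0.51, adjusted p = 3.35e-04), and it was above background on no array at 15 days.

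Outer dynein arm heavy chains are the main motors of the beat. Dnah8, a heavy chain of the sperm tail, fell at 15 days, with 5.36, 6.42 and 7.09 (lowest, median, highest) on KO arrays, against 7.33, 8.22 and 9.89 on WT arrays (-2.13 ± 0.49, adjusted p = 0.0213). Its call ended without 15-day KO array D (adjusted p = 0.0699) and without background correction (-1.09, adjusted p = 0.145), and a second Dnah8 probe had -0.66 at 15 days (adjusted p = 0.555) and -1.87 at 49 days (adjusted p = 8e-04). At 49 days the first probe had 8.88, 11.56 and 12.44 in KO, against 12.39, 12.53 and 12.72 in WT (-1.22 ± 0.49, adjusted p = 0.0558). Its partner in the sperm tail, Dnah17, was above background on no KO array and on 2 WT arrays at 15 days. At 49 days Dnah17 ranged from 6.11 to 10.56 with a median of 9.29 in KO, against 10.78 to 11.17 with a median of 11.01 in WT (-1.92 ± 0.49, adjusted p = 0.0028).
The inner arm heavy chain Dnah2 fell by 0.79 ± 0.21 at 49 days (adjusted p = 0.0047), with 9.65 to 10.88 in KO, against 11.06 to 11.23 in WT. A second Dnah2 probe, above background on 17 arrays, had -0.08 there and did not pass (adjusted p = 0.841). Dnah1, an inner arm heavy chain that was above background on 1 array, passed there (-0.42 ± 0.15, adjusted p = 0.0338), but not without 49-day WT array A (adjusted p = 0.106). Dnah5 and Dnah9, outer arm chains of airway cilia, and the inner arm chains Dnah6 and Dnah10 were above background on no array. Dnah11, an outer arm chain of airway and nodal cilia, had 8.21, 9.07 and 10.08 in KO at 49 days, against 7.53, 8.01 and 9.34 in WT. Dnah11 rose (0.75 ± 0.29, adjusted p = 0.0433), but its call ended in 9 of the 24 fits that leave out 1 array, and a dim second probe moved the other way (-0.44, adjusted p = 0.0187). Among light chains, Dnali1 of the inner arm fell by 1.81 ± 0.46 (adjusted p = 0.00287) and Dnal1 of the outer arm by 1.67 ± 0.41 (adjusted p = 0.00196) at 49 days, and Dnal4 was above background on no array.

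Genes that build and dock the arms, listed apart from the 77, moved in the same direction. Of 12 dynein assembly factors, 2 fell at 15 days (Zmynd10, -3.12 ± 0.46, adjusted p = 6.35e-04, and Dnaaf1, -1.77 ± 0.40, adjusted p = 0.0178) and 8 at 49 days, with Dnaaf3 (-1.77 ± 0.34, adjusted p = 1.96e-04) and Dnaaf1 (-1.49 ± 0.40, adjusted p = 0.00424) lowest. All 5 outer arm docking genes fell at 49 days, led by Efcab1 (-3.24 ± 0.34, adjusted p = 2.79e-07) and Armc4 (-2.37 ± 0.45, adjusted p = 1.84e-04), and 2 of them at 15 days, Ccdc151 (-2.19 ± 0.39, adjusted p = 0.00274) and Ccdc114 (-1.42 ± 0.24, adjusted p = 0.00235). Cytoplasmic dynein and dynactin are the cell-body relatives of these motors. Of 17 genes 1 fell at 15 days (Dynlrb2, -2.68 ± 0.51, adjusted p = 0.00535), and at 49 days 8 rose, Dynlt3 (1.77 ± 0.24, adjusted p = 6.37e-06) and Dynlrb1 (1.42 ± 0.17, adjusted p = 1.47e-06) most, while Dctn1 (-1.25 ± 0.27, adjusted p = 7.18e-04) and Dynll1 (-0.52 ± 0.15, adjusted p = 0.00695) fell, where 30% of all named genes rose and 18.7% fell. At 15 days 2.24% of all named genes fell and 0.724% rose. The median of the cytoplasmic dynein and dynactin genes at 49 days was 0.23, beside -0.60 for the assembly factors and -1.99 for the docking genes, and the lists were not tested against each other.

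The nexin-dynein regulatory complex links neighbouring doublets. Its Drc members Drc1, Drc3 and Drc7 all fell at 49 days and did not pass at 15 days, although the median of the 3 at 15 days was -1.12. Drc1 had 8.03, 10.19 and 11.58 (lowest, median, highest) in KO at 49 days, against 11.75, 11.80 and 11.94 in WT (-1.59 ± 0.44, adjusted p = 0.00531). Drc7 fell by 1.24 ± 0.22 (adjusted p = 7.55e-05). Drc3 fell by 1.03 ± 0.36 (adjusted p = 0.025), a call that ended without KO array D (-0.65, adjusted p = 0.0646). Of 10 further genes of this complex and of the ruler proteins that space the arms, 3 fell at 15 days (Ccdc39, -2.02 ± 0.34, adjusted p = 0.00193, Iqcg, -1.12 ± 0.27, adjusted p = 0.0258, and Gas8) and 9 at 49 days, led by Fbxl13 (-2.14 ± 0.43, adjusted p = 3.16e-04) and Iqca (-1.77 ± 0.35, adjusted p = 2.34e-04). The share of falls over all named genes was 2.24% at 15 days and 18.7% at 49 days.

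Cfap genes formed the largest family, and 6 of 27 fell at 15 days and 19 at 49 days, with medians of -0.44 and -1.41. Cfap65, needed for the sperm flagellum, was above background on no KO array at 15 days, with a median of 5.83 and a highest level of 6.13, against 7.59 to 10.14 on WT arrays, so that it was at least 5.56-fold lower (fitted log2 difference -3.15 ± 0.45, adjusted p = 4.61e-04). At 49 days Cfap65 had -1.09 ± 0.45 (adjusted p = 0.061), with 8.88, 11.28 and 12.16 in KO, against 12.08, 12.22 and 12.29 in WT. A second Cfap65 probe, above background on 1 array, showed -0.01 at 15 days.
Cfap206, which anchors a radial spoke, was likewise above background on no KO array at 15 days, with 4.90 to 6.38, against 7.42 to 9.998 in WT, and was at least 4.81-fold lower (adjusted p = 0.00407). Cfap57, an inner arm regulator, was at least 3.02-fold lower (5.26 to 6.26 in KO and 7.11 to 8.84 in WT, adjusted p = 0.00953). Cfap45, which lies inside the doublet, fell by 1.89 ± 0.46 (adjusted p = 0.0301) and Cfap69, a sperm tail protein, by 1.81 ± 0.38 (adjusted p = 0.0102), and the Cfap45 call ended without 15-day WT array C (adjusted p = 0.0888). Without background correction, and likewise with the authors' log2 values, the 15-day calls of Cfap206 (-1.42, adjusted p = 0.119), Cfap57 (-0.88, adjusted p = 0.176) and Cfap45 (-0.84, adjusted p = 0.303) ended. These 4 fell at 49 days too, by 1.46 ± 0.56 for Cfap206 (adjusted p = 0.0412), by 1.54 ± 0.44 for Cfap57 (adjusted p = 0.00692), by 1.41 ± 0.46 for Cfap45 (adjusted p = 0.0175) and by 1.39 ± 0.38 for Cfap69 (adjusted p = 0.00479). Without KO array D, Cfap206 had -0.90 at 49 days and did not pass (adjusted p = 0.123).
Other Cfap genes passed as lower at 49 days and not at 15 days. Cfap97d1, a sperm tail protein, was above background on no 15-day array, so no fall could be seen there. At 49 days it had 8.24, 10.58 and 12.82 in KO, against 12.73, 13.25 and 13.37 in WT (-2.41 ± 0.49, adjusted p = 3.56e-04). Cfap126 (-1.92 ± 0.49, adjusted p = 0.0028), a protein of the doublet lumen, and Cfap157 (-1.83 ± 0.34, adjusted p = 1.32e-04), a protein of the sperm tail, also fell at 49 days. At 15 days Cfap126 was above background on 5 of 6 WT arrays and had -1.04 without passing. Its effects at the 2 ages did not differ in limma (49 minus 15 days, -0.88, adjusted p = 0.411). Cfap36, Cfap97d2, Cfap298 and Cfap300 were above background on no array, although Cfap97d2 passed at 49 days (-0.76 ± 0.11, adjusted p = 7.63e-06, 4.97 to 5.48 in KO and 5.59 to 6.23 in WT).

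Of the 14 IFT genes 5 fell at 15 days, and the median over the family was -0.41 at 15 days and -0.47 at 49 days. Ift122, of the retrograde IFT-A complex, had 8.07, 8.27 and 8.41 on KO arrays, against 8.76, 9.47 and 9.78 on WT arrays (-1.11 ± 0.17, adjusted p = 0.0012). Ift88, of the anterograde IFT-B complex, had 9.56, 9.79 and 10.11 in KO, against 10.47, 10.72 and 11.11 in WT (-0.95 ± 0.16, adjusted p = 0.00215). No KO array of either gene reached the WT range. Ift81 fell by 0.51 ± 0.12 (adjusted p = 0.029), Ift52 by 0.31 ± 0.07 (adjusted p = 0.0173) and Ift80 by 1.01 ± 0.27 (adjusted p = 0.0488), and Ift80 was the 1 gene among the 15 falls whose ranges overlapped. The calls of Ift81 and Ift80 ended without 15-day KO array D (adjusted p = 0.0831 and 0.139), and a second Ift80 probe, above background on 2 arrays, had 0.47 (adjusted p = 0.374). Other Ift81 probes, each above background on all 24 arrays, had -0.79 (adjusted p = 0.0095) and -0.64 (adjusted p = 0.0534). A second Ift52 probe, above background on all 24 arrays, had -0.29 and did not pass (adjusted p = 0.198).
At 49 days 7 IFT genes fell and 1 rose. Ift172, of IFT-B, had 11.23, 12.80 and 13.87 in KO, against 14.38, 14.44 and 14.50 in WT (-1.60 ± 0.28, adjusted p = 8.69e-05). Ift74, of IFT-B, fell by 1.80 ± 0.58 (adjusted p = 0.0164) and rested largely on array D, where it stood at 5.25 against 10.10 to 10.73 on WT arrays; without that array it had -1.12 (adjusted p = 0.0264). Ift122 fell by 0.73 ± 0.17 (adjusted p = 0.00153) and Ift22 by 1.13 ± 0.33 (adjusted p = 0.00813). The used probe of Ift88 had -0.39 (adjusted p = 0.065) at 49 days, and its second probe passed as lower (-0.56, adjusted p = 0.002). For Ift81 the used probe had -0.26 and did not pass, and the other probes passed as lower (-0.68, adjusted p = 0.0017, and -0.54, adjusted p = 0.0149).
Ift20, the IFT-B subunit that also works at the Golgi, moved the other way. Its KO levels at 49 days were 13.22, 13.45 and 13.60, against 12.62, 12.76 and 12.89 in WT, without overlap (0.67 ± 0.09, adjusted p = 3.83e-06). A second Ift20 probe also rose (0.43, adjusted p = 0.0093), but under cyclic loess normalization the Ift20 difference was -0.06 (adjusted p = 0.682). Ift46 and Ift57 were above background on no array.
Of 19 IFT subunits and motors with other names, 4 fell and 1 rose at 15 days and 6 fell and 1 rose at 49 days. Over all named genes 2.24% fell and 0.724% rose at 15 days, and 18.7% fell and 30% rose at 49 days. Ttc26 (-1.22 ± 0.30, adjusted p = 0.0349) and the retrograde motor chain Dync2h1 (-0.90 ± 0.20, adjusted p = 0.0145) fell most and Ttc30b rose (0.53 ± 0.14, adjusted p = 0.0446) at 15 days. The motor Kif17 (-2.54 ± 0.30, adjusted p = 1.15e-06) and Ttc30a2 (-2.05 ± 0.52, adjusted p = 0.00284) fell most and the kinesin subunit Kifap3 rose (0.26 ± 0.10, adjusted p = 0.0421) at 49 days. The Kifap3 rise is given under quantile normalization only, and cyclic loess left 0 rises among the 77 genes at that age. The BBSome, a cargo adaptor of IFT, had 3 of 11 genes lower at 15 days, with Bbs7 (-0.83 ± 0.18, adjusted p = 0.0163) and Bbs2 (-0.51 ± 0.07, adjusted p = 3.8e-04) among them, and 4 lower at 49 days, led by Bbs5 (-1.50 ± 0.27, adjusted p = 9.49e-05) and Bbs1 (-1.25 ± 0.21, adjusted p = 5.29e-05).

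Among the remaining Spag genes, Spag4, of the nuclear envelope, had 9.85, 12.07 and 13.70 in KO at 49 days, against 14.18, 14.19 and 14.35 in WT (-2.14 ± 0.41, adjusted p = 1.76e-04). Spag8, a flagellar protein of the doublet, fell by 2.0 ± 0.48 (adjusted p = 0.00161). Spag9 rose at 49 days, with 10.37, 10.92 and 11.26 in KO, against 9.93, 10.03 and 10.30 in WT (0.79 ± 0.14, adjusted p = 7.77e-05). The rise of Spag9 rests on its brightest probe, since 6 other probes of the gene passed at neither age and the next brightest had -0.09 at 49 days (adjusted p = 0.744). Neither Spag11a nor Spag11b passed a KO test.

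**Figure D3:**
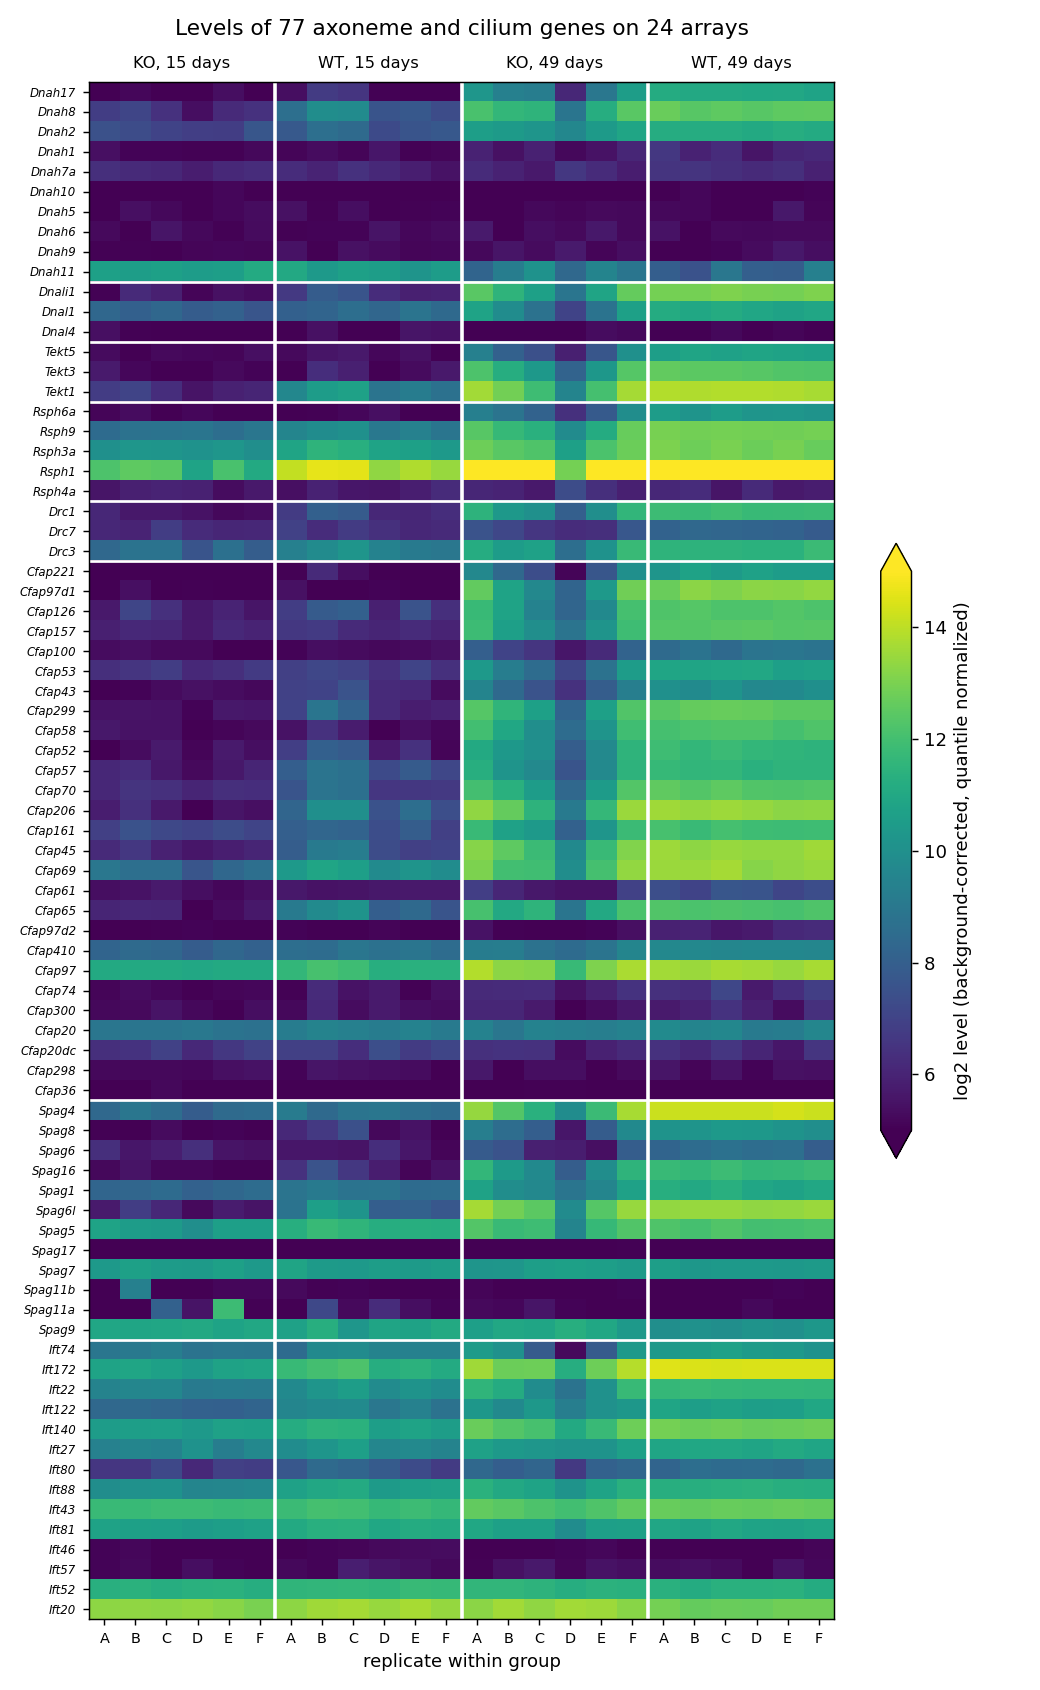
Log2 level of the 77 genes (rows, grouped by stem and ordered by the difference at 49 days) on the 24 arrays (columns, replicates A to F of KO and WT at each age). Most of the Tekt, Drc and Cfap rows are dark at 15 days and bright on the 49-day WT arrays, and 49-day KO array D is darker than its neighbours in many rows.

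Central pair partners, tubulin modifiers and regulators outside the naming rule were also counted. Of 13 central pair and spoke partners, Nme5 fell at 15 days (-1.87 ± 0.50, adjusted p = 0.0494). At 49 days 9 of them fell, led by Ropn1 (-2.32 ± 0.51, adjusted p = 7.62e-04) and Dydc1 (-1.91 ± 0.35, adjusted p = 1.09e-04), and Mycbp rose (1.23 ± 0.19, adjusted p = 2.3e-05). Of 14 genes of tubulins and of tubulin modification, 0 passed in limma at 15 days (2 lower and 0 higher at an unadjusted p under 0.05). Ttll9 had -0.98 there (adjusted p = 0.367). At 49 days 9 of the 14 fell, with Ttll8 (-3.13 ± 0.26, adjusted p = 1.48e-08) and Ttll9 (-2.65 ± 0.47, adjusted p = 8.08e-05) lowest. Of 13 transcription regulators of ciliary or spermatid genes, Rfx4 (-2.28 ± 0.49, adjusted p = 0.0133) and Rfx2 (-1.73 ± 0.39, adjusted p = 0.018) fell at 15 days. At 49 days 5 fell, among them Crem (-1.88 ± 0.46, adjusted p = 0.00193) and Rfx4 (-1.36 ± 0.49, adjusted p = 0.0323). Beside these 3 lists, 2.24% of all named genes fell at 15 days, and 18.7% fell and 30% rose at 49 days.

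Most of the 77 genes gained expression with age in both genotypes. In WT testes 54 of the 77 genes were higher at 49 than at 15 days and 7 were lower, with a median log2 difference (49 minus 15 days) of 1.79, where 20.7% of all named genes were higher and 37.5% lower. In KO testes 52 were higher and 1, Dnah11, was lower, with a median of 1.54, where 15.9% of all named genes were higher and 22.6% lower. Cfap97d1 gained most in WT, by at least 111-fold, and Tekt3 gained at least 66.4-fold in WT. These age contrasts share arrays with the KO contrasts and are set beside them, not combined.
By level in 15-day WT testes, 37 genes were above background on all 6 arrays, 16 on some and 24 on none. The 15 falls at 15 days were all among the 37, and these also held 22 falls and the 3 rises at 49 days. Of the 16 detected on some arrays, 13 fell at 49 days. Of the 24 not detected, 8 were above background on every 49-day WT array (Cfap61, Cfap97d1, Cfap100, Cfap221, Rsph6a, Spag6, Tekt3 and Tekt5), a choice that uses the WT arm of the 49-day comparison and so gives no support to their falls there. A gene that is not above background in 15-day WT testes cannot show a fall at 15 days on this array.

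The KO effects at both ages were compared directly, as the effect at 49 days minus the effect at 15 days. It was negative in 13 genes, where 11.6% of all named genes passed, and positive in 6, where 21.3% passed. The strongest negative values belonged to Tekt5 (-2.53 ± 0.58, adjusted p = 0.00312), Cfap97d1 (-2.40 ± 0.69, adjusted p = 0.0137), Cfap221 (-2.06 ± 0.71, adjusted p = 0.0371), Spag6 (-1.91 ± 0.52, adjusted p = 0.00865) and Rsph6a (-1.91 ± 0.50, adjusted p = 0.00696), and each was above background on no 15-day array. On the probes used, Cfap65 (2.07 ± 0.63, adjusted p = 0.0193), Spag6l (2.06 ± 0.75, adjusted p = 0.0455) and Rsph1 (1.49 ± 0.53, adjusted p = 0.0414) had the larger fall at 15 days. Cfap65 was above background on no 15-day KO array and Spag6l on 1, so the sizes of both are uncertain. Rsph1 had intensities of 44142 to 50191 on 49-day WT arrays, and whether the scanner's upper range limited its 49-day effect was not tested. The second Spag6l probe had similar values at both ages, -1.50 at 15 days and -1.43 at 49 days. Ift20 (0.93 ± 0.12, adjusted p = 2.72e-05), Spag9 (0.68 ± 0.20, adjusted p = 0.0127) and Ift52 (0.45 ± 0.10, adjusted p = 0.00179) had a higher KO difference at 49 days, 0.67, 0.79 and 0.15, than at 15 days, -0.26, 0.10 and -0.31. For Tekt1 the difference did not pass.

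KO testes at 49 days were far from uniform. Of the 45 genes that fell there, array D was the lowest KO array for 41, E for 3 and C for 1, while F was the highest for 33, A for 11 and C for 1. Measured against the mean of the WT arrays, the median over these 45 genes was -0.39 on array A, -1.197 on B, -1.82 on C, -3.69 on D, -1.86 on E and -0.25 on F. The 45 genes were chosen for falling in this same contrast, so the values describe the spread and not the fall. All 45 lay below every WT array on B, D and E, 44 did on C, 38 on A and 31 on F.
Averaged over a family, the log2 difference from the WT mean on array D was -1.02 for the 10 Dnah genes and -4.47 for the 3 tektins. On array F it was -0.09 for the Dnah genes and -0.31 for the tektins.

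**Figure D4:**
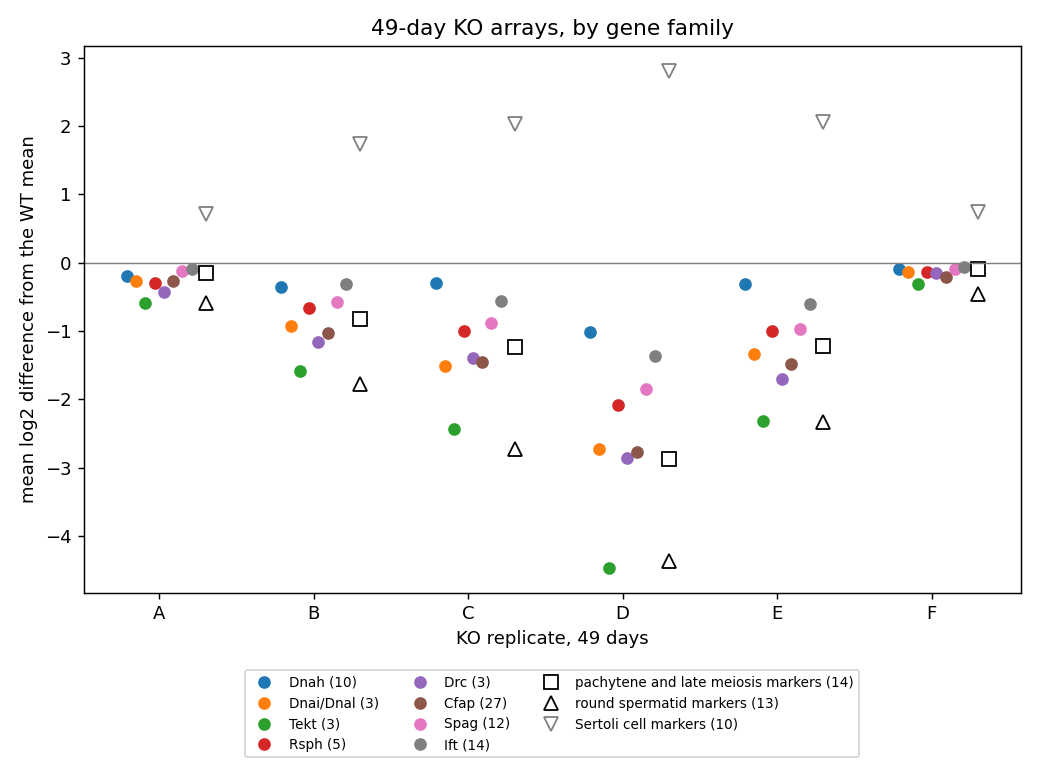
Mean log2 difference from the 49-day WT mean (y axis) on each 49-day KO array (x axis) for the 8 gene families (filled points, number of genes in the legend) and for 3 marker lists (open symbols). Families and germ cell markers are lowest on array D and near 0 on A and F, and Sertoli cell markers run the other way, up to 2.81 on D.

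Markers of germ cell stages moved with these genes, and their part in the result was not tested. At 15 days 6 of 14 pachytene and late meiosis markers fell, and their mean level per array was 6.70 to 7.93 in KO, against 8.20 to 9.45 in WT, with 4 of the 14 above background on no KO array and 3 on no WT array. Of 13 round spermatid markers 2 fell (Dkkl1 and Acr) and 12 elongating spermatid markers gave no call at 15 days (limma; 0 at an unadjusted p under 0.05 in either direction). At 49 days 12 of 13 round spermatid markers and 10 of 12 elongating spermatid markers fell, with mean levels of 8.36 to 12.28 in KO, against 12.61 to 12.83 in WT, and of 9.91 to 14.004 in KO, against 14.36 to 14.59 in WT. The round spermatid mean differed from the WT mean by -4.37 on array D and by -0.45 on F. All 10 Sertoli cell markers rose at 49 days, with a mean level of 10.51 to 12.61 in KO, against 9.54 to 9.97 in WT. Of the other lists, 5 of 7 Leydig cell, 6 of 7 macrophage and 4 of 10 spermatogonia markers rose, and 1 macrophage marker fell. Over all named genes 30% rose and 18.7% fell at 49 days, and the spermatogonia count lies near that share of rises. The spermatogonia mean differed from the WT mean by -0.03 on array D and by 1.01 on C. At 15 days 0 of the Sertoli, Leydig and macrophage markers passed in limma (0, 0 and 2 higher at an unadjusted p under 0.05), and 1 spermatogonia marker fell. Multiciliated epithelium, another source of axoneme transcripts, was covered by 8 markers, of which 2 fell at each age. Over all named genes 2.24% fell at 15 days and 18.7% at 49 days. Dynlrb2, which fell at 15 days, is also counted among the cytoplasmic dynein genes, and the cell type behind these falls was not tested. The number of these 8 markers above background on no array was 4 in 15-day KO, 4 in 15-day WT, 3 in 49-day KO and 4 in 49-day WT testes. Of 8 epididymis markers 0 passed at 15 days (0 at an unadjusted p under 0.05) and 1 rose at 49 days.

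The arrays lie on 4 slides, and each slide holds all 4 groups. The median KO difference over the 77 genes, computed inside each slide, ran -0.68, -0.32, -0.55 and -0.29 for the 15-day testes and -0.69, -0.91, -0.65 and -1.21 for the 49-day testes. All 15 calls at 15 days and 47 of the 48 at 49 days had the same sign on every slide. These genes were called on the same arrays, so the shared sign describes the slides and gives no support to the calls. With the slide as a block, 16 genes fell at 15 days, and 42 fell and 2 rose at 49 days. Among the named genes this block ended the 49-day calls of Cfap206 (adjusted p = 0.0516), Drc3 (0.051), Rsph3a (0.0578) and Dnah11 (0.065).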

How the data were processed

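RNA from 24 testis samples was amplified into biotin-labelled cRNA and read on 1-colour Illumina beadchips, per the labels' protocols. The authors deposited a table of probe intensity, linear and not normalized, for 45278 probes and 956 control rows, and a series table of processed log2 values that the authors made from them. How the bead summary was made is not given in the sources used here. The control rows carry no names, and the 946 dim ones (median under 400) served as background. Precision is limited by having 6 arrays a group.

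Intensities were background-corrected (normexp, offset 16), quantile normalized and put on the log2 scale, which understates changes of dim probes. A mean per group was fitted to the 24 arrays with limma 3.58.1 in R 4.3.3 (lmFit, eBayes, 20 residual degrees of freedom), two-sided, with Benjamini-Hochberg adjustment over all probes, a threshold of 0.05 and no filter. On simulated data for the 15-day contrast (45278 probes) the fit recovered 69% of changes of size 1 and 98% of size 2 (log2), with 16 false calls. The changes were added to log2 values with normal noise, only in probes above the median level. These rates therefore do not cover dimmer probes, which include many of the genes described here. Where no array of a group was above background, the fold is a bound, set by the dimmest probe still above background per array. Tables and promoter counts were made with Python 3.11.15 and pandas 2.3.3.

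Members and lists were chosen with earlier results of these data known. Named in the text are, per family and age, up to 4 called genes per direction with the largest change (or the 2 largest values), calls against the family's direction, calls at both ages, genes above background nowhere, and up to 2 called genes per list, direction and age (or the largest value). Cfap20dc, Cfap61, Cfap100, Ift52, Gas8, Dkkl1, Acr, Rsph4a, Spag11a and Spag11b fall outside it and were chosen after their values were seen. Probe names came from the platform annotation, updated through gene identifiers with GRCm38.p6, and 34885 probes had 1 symbol, 18 several. Alternatives covered background correction, normalization, filters, probe choice, slide, replicate letter, variance model and leaving out arrays. The replicate letters do not pair the samples: deviations of same-letter arrays correlated between -0.042 and 0.105 at 15 days and between -0.174 and 0.144 at 49 days.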

Additional observations from a re-analysis of the deposited data

Results flagged for a closer look

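Among named genes above background in a group, 136 groups of 6 arrays were checked for an array far from the rest, and 15 had one; chance marks about 1 in 20 groups. Of these, 8 were the lowest value of 49-day KO array D, the array that was lowest for most of the genes: Cfap65 at 8.88, Dnah8 at 8.88, Dnah17 at 6.11, Ift80 at 6.68, Ift81 at 9.86, Rsph1 at 12.91, Rsph3a at 10.68 and Spag6l at 9.82. The other 7 lay on other arrays. On 15-day KO array F, Dnah11 was high at 11.11 and Ift20 low at 12.99. On 15-day KO array C, Drc7 was high at 6.80. On 15-day WT array A, Ift74 was low at 8.50. On the 49-day WT arrays, Drc3 on F at 11.83, Rsph1 on F at 15.68 and Spag4 on E at 14.35 were high, in groups whose other arrays lay close together.

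In 15 named genes the KO effect at 49 days differed from that at 15 days, by the test of the difference in limma. It was more negative at 49 days for Tekt5 (-2.53), Cfap97d1 (-2.40), Cfap221 (-2.06), Spag6 (-1.91), Rsph6a (-1.91), Spag4 (-1.86), Cfap157 (-1.53), Drc7 (-1.03), Cfap97d2 (-0.69) and Dnah10 (-0.31), all on the log2 scale. Cfap97d2 and Dnah10 were above background on no array. The KO effect was more positive at 49 days for Spag9 (0.68), Ift20 (0.93), Rsph1 (1.49), Spag6l (2.06) and Cfap65 (2.07). Cfap65 was above background on no 15-day KO array, and the second Spag6l probe had -1.50 at 15 days and -1.43 at 49 days. Whether the upper end of the scanner's range limited Rsph1 at 49 days was not tested.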

How the results depend on the processing

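The number of genes lower at 15 days was 15 and depended most on the variance and the background: it was 9 without background correction, 9 with the authors' log2 values, 26 with only the 12 arrays of that age, 31 with array weights, and 10 to 28 when 1 array was left out, 28 being without 49-day KO array D. Without 15-day KO array B and WT array A it was 10, and 21 in a fit of the 15-day arrays alone without them, an alternative chosen after seeing the data. The median at 15 days (-0.35) was -0.53 over the 61 genes among the probes brighter than the median probe, -0.56 over the 59 above background on 6 or more arrays, -0.21 with a gene's second probe, and -0.42 to -0.33 with 1 array left out. At 49 days the genes lower (45) numbered 35 to 56 over all other settings and 40 to 50 with 1 array left out, and the median (-0.97) ran from -1.47 to -0.64 and from -1.17 to -0.64. The 3 higher genes became 0 with cyclic loess, 1 with the second probe, 1 with the mean of a gene's probes, and 2 to 4 with 1 array left out. The 13 genes with a negative difference of effects became 21 with cyclic loess and 21 with array weights, and 10 to 17 with 1 array left out. Genes higher at 49 than at 15 days ran from 49 to 60 in WT and from 45 to 60 in KO (52 to 55 and 50 to 55 with 1 array left out). Direction turned for Ift20 at 49 days with cyclic loess (-0.0641) and, with the second probe, for Ift80 at 15 days (0.47), Dnah11 at 49 days (-0.44) and Spag9 at 49 days (-0.0857). The cause was not tested. Leaving out 1 array ended 4 calls at 15 days (Ift80 in 18 of the 24 fits, Ift81 in 8, Cfap45 in 7, Dnah8 in 4) and 5 at 49 days (Cfap206 in 9, Dnah11 in 9, Rsph3a in 7, Dnah1 in 6, Drc3 in 3). A fit of only the 12 arrays of that age ended the 49-day calls of Cfap206, Dnah1, Dnah11, Drc3, Ift22, Ift74, Rsph3a and Tekt1 (adjusted p = 0.0609 for Tekt1 to 0.156 for Dnah11). Of the named calls, 8 of 13 at 15 days and 12 of 34 at 49 days ended under at least 1 setting, counting 1 array left out. Ift52, outside the naming rule, is not among the 13. At 15 days Cfap69, Ift122, Ift88, Rsph1 and Tekt1 passed in every setting run. Over all probes, calls at 15 days were 688 lower and 311 higher, against 371 and 359 with scale normalization, and at 49 days 7403 lower and 9661 higher, against 9982 and 6407 with cyclic loess. With the letter as a replicate block, 15 genes fell at 15 days and 48 fell and 3 rose at 49 days, with 12 negative differences, and the block moved no count by over 1.5 times; the letters share only a number. Probes near background limit what can be seen: 12 genes were above background on no array.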
